A study of Mus musculus with 17 samples.

Results

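The response of hippocampal genes to a last injection of the convulsant pentylenetetrazole (PTZ), an antagonist of GABA-A receptors, was examined in CBP-ifKOs, by comparing the 3 CBP-ifKO PTZ45 libraries with the 3 CBP-ifKO Sal libraries. These 6 RNA-seq libraries were taken by their group label out of 17 in all. CBP-ifKOs were adult C57BL/6 mice of 3 to 6 months in which tamoxifen had activated creERT2, driven by a Camk2a promoter, on a floxed Crebbp gene, so that the lysine acetyltransferase CBP was truncated in forebrain excitatory neurons. Sal mice had not been kindled and received saline. PTZ0 and PTZ45 mice had both been kindled, that is, injected repeatedly with PTZ, and their final injection was saline in PTZ0 and PTZ at 45 mg/kg in PTZ45. Controls were littermates given tamoxifen, described in the methods as lacking the Cre transgene although their labels also name the creERT2 line, with 3 Sal and 2 PTZ45 libraries used here. Hippocampi were collected 45 min after the last injection, and each library came from 1 mouse. The paper reports seizures in all controls in the course of kindling, whereas no CBP-ifKO reached the stage of progressive seizures. Comparisons of the PTZ45 response between genotypes therefore include this difference in seizures, and its part in the responses was not tested.

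Neuronal firing opens calcium channels and activates kinases that phosphorylate transcription factors already bound near immediate early genes, so that these genes are transcribed within minutes without new protein. CREB and SRF are such factors, and CBP is a coactivator that CREB recruits. Many immediate early genes, such as Fos, Egr1 and Dusp1, respond to growth factors, shear stress or hormones in glia and blood vessels as well, while others, such as Npas4 and Arc, are known mainly from neurons. The Camk2a promoter is silent in interneurons, glia and vessels, where Crebbp is therefore left intact by design, and a bulk library of the hippocampus adds up the RNA of all these cells. In such libraries a weaker response in each cell and a response in fewer cells cannot be told apart.

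The libraries matched their labels. Crebbp had 1061 to 1337 normalized counts (counts divided by a size factor for depth) in the 6 CBP-ifKO libraries and 1824 to 2429 in the 5 control libraries, and Esr1, which shares sequence with the creERT2 transgene, had 703 to 941 and 49.2 to 77.8. Neither gene was called in PTZ45 against Sal of CBP-ifKOs, with log2 fold changes (log2FC, PTZ45 over Sal) of -0.06 (SE 0.11) for Crebbp and 0.04 (SE 0.13) for Esr1. Total counts ranged from 5831992 to 18735643 in the CBP-ifKO Sal libraries and from 10439536 to 12027406 in the CBP-ifKO PTZ45 libraries. The sum of 8 choroid plexus markers stood far apart in Sal replicate 1 (44704 normalized counts) and PTZ45 replicate 2 (30545), against 548 to 710 in the other 4 libraries. Sal libraries were sequenced on lane 4 and PTZ45 libraries on lane 5, and Sal mice were not kindled, so PTZ, kindling and lane cannot be told apart in this comparison. The same holds in controls, with Sal on lane 3 and PTZ45 on lane 4. CBP-ifKO PTZ0 libraries shared lane 5 with CBP-ifKO PTZ45, came from kindled mice, and are given as a further reference.

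With CBP truncated in excitatory neurons, 17 genes rose in PTZ45. Of these, 12 belong to 5 lists of inducible genes, which held 40, 31, 17, 15 and 4 of the 19757 genes tested. The lists were written with earlier results of these data known, so this membership is no independent support. The 17 comprised the AP-1 genes Fos and Fosb, the zinc finger genes Egr1 and Egr2, Nr4a1, Btg2 and Dusp1. They also comprised the neuronal genes Npas4, Arc and Ptgs2, the vascular genes Apold1 and Ccn1, the histone gene H3f3b and 4 genes without an established name. By DESeq2's Wald test with Benjamini-Hochberg adjusted p under 0.05, these were 17 of 19757 genes tested, that is 0.086% of genes. Controls had 163 genes called higher in PTZ45 of 17367 tested (0.939%), among them 16 of these 17 genes. The median log2FC of the 17 genes was 1.42, and 11 of them were raised at least 2-fold. For each of the 17 the lowest PTZ45 library exceeded the highest Sal library, a separation seen in 6.69% of all genes tested. The 17 were chosen on these same libraries, so their separation is no independent support. Of the 17, 13 had a smaller response than in controls by the test of the genotype by PTZ45 interaction, which called 69 of 20945 genes (0.329%) as smaller in CBP-ifKOs. DESeq2 called 0 genes as responding more strongly in that genotype (116 at an unadjusted p under 0.05), and edgeR without a filter 17. The count of smaller responses was 37 without Control PTZ45 replicate 1, a fit in which the 1 library left in that group is assumed to vary like the other groups, and 36 without the libraries with choroid plexus signal, Control Sal replicate 2 included.

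The number of higher calls depended on the libraries. It was 11 without PTZ45 replicate 1, 10 without PTZ45 replicate 2, 6 without PTZ45 replicate 3 and 11 without Sal replicate 2, and 9 when the choroid plexus-rich Sal replicate 1 and PTZ45 replicate 2 were left out together. The edgeR quasi-likelihood test on filtered genes called 4, namely Fos, Npas4, Btg2 and Gm47075, and these 4 were called in each of the 14 alternatives tried.

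**Figure D1:**
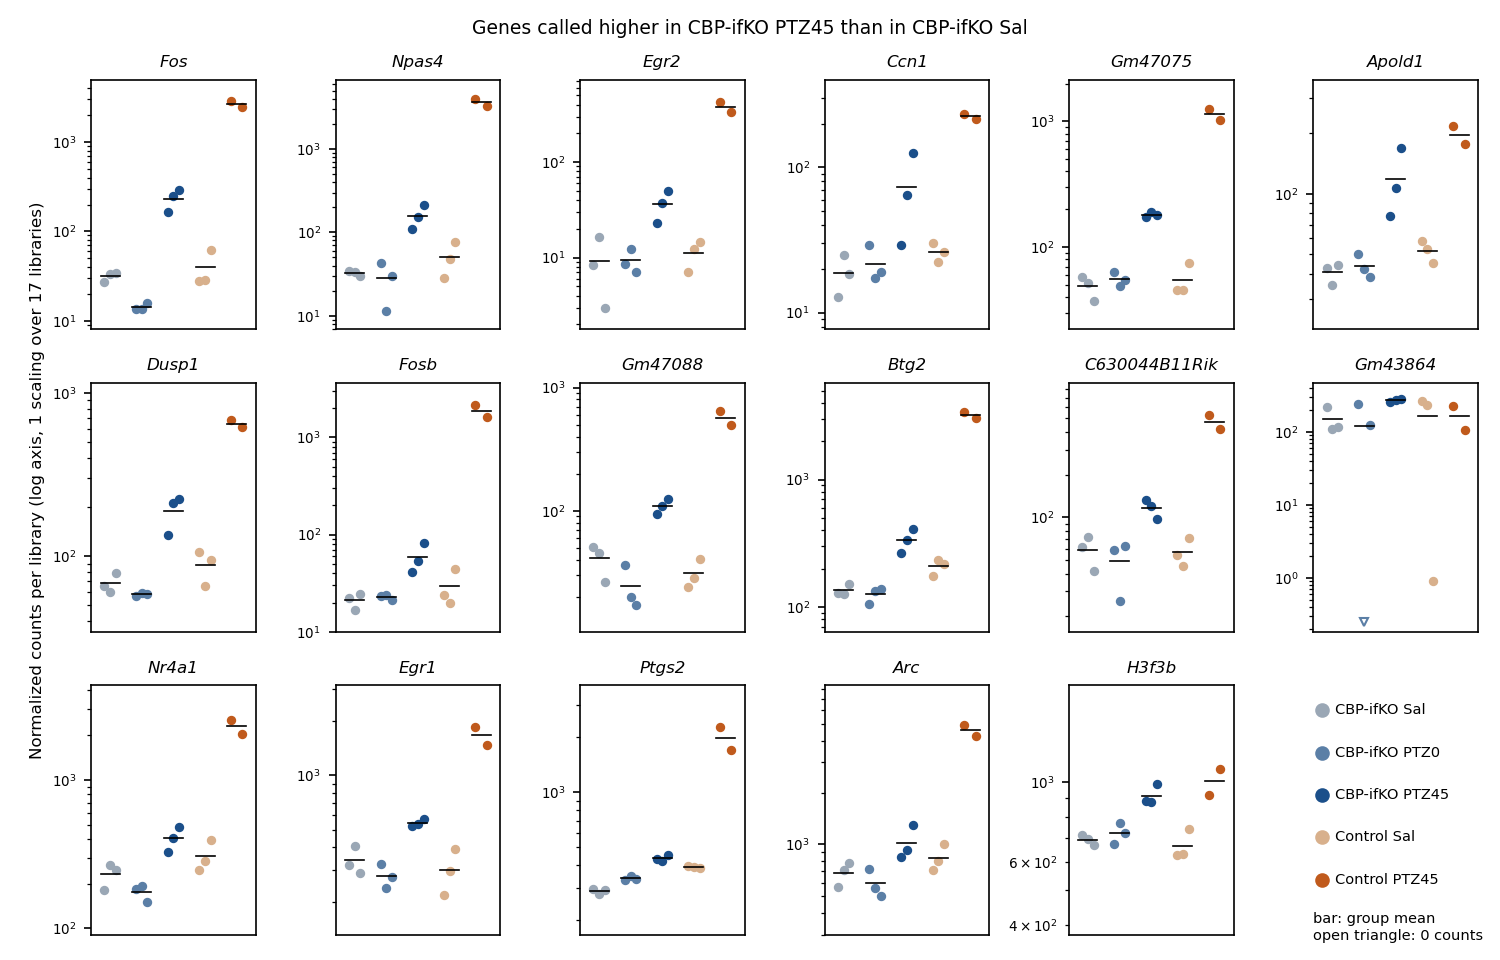
Normalized counts on a log axis in each library for the 17 genes called higher in CBP-ifKO PTZ45 than in CBP-ifKO Sal, with the PTZ0 libraries of the same genotype and the control Sal and PTZ45 libraries. Bars are group means. For Fos the CBP-ifKO PTZ45 libraries lie at 163 to 288, above all Sal libraries and below the control PTZ45 libraries at 2483 and 2915.

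The proximal promoters of several responders are shown because CREB binds the letters TGACG, and its full palindrome TGACGTCA, and recruits CBP. Each sequence runs 5′ to 3′ from 250 bases before to 50 after a transcription start in RefSeq (build GRCm38.p6), and capitals mark TGACG on either strand, overlapping copies joined. Fos is at chr12:85473640-85473939 on the plus strand, Npas4 at chr19:4989922-4990221 on the minus strand, Btg2 at chr1:134079106-134079405 on the minus strand and Dusp1 at chr17:26508423-26508722 on the minus strand. The vascular genes Apold1 and Ccn1 are at chr6:134981751-134982050 on the plus strand and chr3:145649936-145650235 on the minus strand.
Fos: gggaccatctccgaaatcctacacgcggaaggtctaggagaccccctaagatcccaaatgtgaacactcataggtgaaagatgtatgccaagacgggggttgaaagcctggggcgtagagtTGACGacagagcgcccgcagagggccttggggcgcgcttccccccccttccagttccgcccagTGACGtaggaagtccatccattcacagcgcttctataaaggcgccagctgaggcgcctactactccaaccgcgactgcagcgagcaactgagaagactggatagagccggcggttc
Npas4: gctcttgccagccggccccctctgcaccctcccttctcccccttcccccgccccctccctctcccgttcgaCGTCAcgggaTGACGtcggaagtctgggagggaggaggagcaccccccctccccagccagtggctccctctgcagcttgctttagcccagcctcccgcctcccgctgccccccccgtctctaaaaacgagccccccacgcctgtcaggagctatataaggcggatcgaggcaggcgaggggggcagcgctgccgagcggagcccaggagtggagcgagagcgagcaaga
Btg2: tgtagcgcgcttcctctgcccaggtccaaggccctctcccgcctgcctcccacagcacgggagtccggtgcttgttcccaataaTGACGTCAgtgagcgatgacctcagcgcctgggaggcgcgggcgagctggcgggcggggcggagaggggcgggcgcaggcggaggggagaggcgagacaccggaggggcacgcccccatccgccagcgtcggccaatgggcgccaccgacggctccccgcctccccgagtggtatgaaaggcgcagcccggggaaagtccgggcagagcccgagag
Dusp1: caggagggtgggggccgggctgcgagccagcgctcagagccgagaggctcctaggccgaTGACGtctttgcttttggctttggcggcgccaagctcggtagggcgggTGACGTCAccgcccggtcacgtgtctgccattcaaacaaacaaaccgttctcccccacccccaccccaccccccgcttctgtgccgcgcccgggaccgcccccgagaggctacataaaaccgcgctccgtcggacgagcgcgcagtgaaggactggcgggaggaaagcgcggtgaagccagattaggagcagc
Apold1: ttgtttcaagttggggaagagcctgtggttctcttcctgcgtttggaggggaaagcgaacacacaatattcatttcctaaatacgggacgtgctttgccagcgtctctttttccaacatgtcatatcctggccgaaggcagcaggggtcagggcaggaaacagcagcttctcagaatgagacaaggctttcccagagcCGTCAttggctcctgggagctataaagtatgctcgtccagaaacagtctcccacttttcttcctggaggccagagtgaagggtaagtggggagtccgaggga
Ccn1: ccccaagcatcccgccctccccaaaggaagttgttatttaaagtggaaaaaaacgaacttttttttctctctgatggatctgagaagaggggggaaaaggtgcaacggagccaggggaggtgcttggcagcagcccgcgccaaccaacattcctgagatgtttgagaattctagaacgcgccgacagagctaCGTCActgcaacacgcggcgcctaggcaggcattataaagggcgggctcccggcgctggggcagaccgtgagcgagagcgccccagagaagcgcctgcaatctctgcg

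Of the 17 responders 11 had an entry in this promoter table, and all 11 held TGACG in at least 1 of their starts, as did 6228 of all 27025 genes in the table. Of the 32851 single promoters of this length 20.8% held it. TGACGTCA itself was found in Btg2 and Dusp1, and in 1.79% of all promoters. Fos held TGACG with its first letter 129 and 66 bases before the start, Npas4 179 and 169 bases before it, Apold1 52 and Ccn1 58 bases before it. The same letters were also found in genes without a call in CBP-ifKOs. Among the 61 genes raised at least 2-fold in controls and not called in CBP-ifKOs, 32 were in the table and 16 held TGACG, against 10 of 10 for the genes called in both. These shares rest on few genes, and their difference was not tested.

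Fos, which encodes a subunit of AP-1, had the largest log2FC of the 17 genes. Its normalized counts were 26.9, 33.2 and 34.0 in Sal and 163, 249.9 and 288 in PTZ45. In PTZ0 they were lower than in Sal, at 13.4, 13.4 and 15.8. The log2FC against Sal was 2.91 (SE 0.26, adjusted p 1.33e-25 by DESeq2), a 7.45-fold difference of means. The PTZ45 mean was 8.65% of that in control PTZ45, where Fos had 2915 and 2483, and the interaction was -3.18 (SE 0.52, adjusted p 7.5e-07). Fosb, a second AP-1 subunit gene, had 22.4, 16.6 and 24.4 in Sal and 41.0, 53.0 and 82.5 in PTZ45. The groups did not overlap, but its PTZ45 mean reached only 3.11% of the control PTZ45 mean, and its interaction of -4.57 (SE 0.56, adjusted p 3.25e-13) was the largest of all named genes. Its call against Sal, at a log2FC of 1.42 (SE 0.37, adjusted p 0.0413), was lost in 8 of 13 alternatives, and without any 1 of the Sal libraries the adjusted p was 0.129 to 0.555, while without PTZ45 replicate 1 or 2 it was 0.108 and 0.194. Without PTZ45 replicate 3 DESeq2 gave Fosb no adjusted p.

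Egr2, a zinc finger factor, was near the floor in Sal with 8.33, 16.6 and 2.96 normalized counts. It had 23.1, 37.0 and 49.5 in PTZ45, a log2FC of 2.17 (SE 0.54, adjusted p 0.0239). This call, resting on few counts, held in 5 of 14 alternatives, was lost in 5 and had no adjusted p in the other 4 (TMM scaling, the replicate block and the fits without PTZ45 replicate 2 or 3). Its adjusted p was 0.108 without PTZ45 replicate 1 or Sal replicate 1 and 0.363 without Sal replicate 3. Egr1, its more abundant relative, had 321, 407 and 287 in Sal and 527, 539.8 and 571 in PTZ45. All PTZ45 libraries of Egr1 lay above all Sal libraries within a narrow range, and its log2FC was 0.71 (SE 0.13, adjusted p 0.000181) against 2.46 in controls. Egr3, by contrast, did not separate, with 383, 396 and 314 in Sal and 417, 381 and 328 in PTZ45 (log2FC 0.05, SE 0.14), whereas control libraries went from 376, 459 and 484 to 1739.5 and 1554.

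Btg2, an antiproliferative gene induced by p53 and by neuronal activity, had 128, 127 and 151 normalized counts in Sal and 267, 333 and 407 in PTZ45. Its log2FC was 1.29 (SE 0.18, adjusted p 1.64e-09), and the PTZ45 mean was 10.4% of that in controls. Nr4a1, an orphan nuclear receptor, had 181, 268 and 249 in Sal and 326, 406 and 485 in PTZ45. Its log2FC was 0.82 (SE 0.17, adjusted p 0.00203), with adjusted p-values of 0.055 without Sal replicate 1, 0.0558 without PTZ45 replicate 2 and 0.155 without PTZ45 replicate 3. Dusp1, a phosphatase that switches off MAP kinases, had 65.3, 60.2 and 79.1 in Sal and 135, 213 and 223 in PTZ45. Of the listed immediate early genes called at least 2-fold higher in controls it had the highest ratio of CBP-ifKO to control log2FC, with a log2FC of 1.45 (SE 0.23, adjusted p 9.27e-07) against 2.84 in controls, a ratio of 0.51. Without Sal replicate 2 its ratio was 0.49 and that of Egr2 0.52. The interaction of Dusp1 was -1.40 (SE 0.29, adjusted p 0.000618), and it was not called in 2 of 19 alternatives, with an adjusted p of 0.111 without Control PTZ45 replicate 1 and 0.0702 by edgeR with its own expression filter. The annotation gives Dusp1 a span of 26505590 to 26562128 on chromosome 17, where Ergic1 overlaps it on the other strand, and the counts are uncertain to that extent.

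Npas4, a neuronal transcription factor induced by calcium entry, had 34.0, 33.2 and 30.3 normalized counts in Sal and 109, 154 and 212 in PTZ45. The log2FC was 2.28 (SE 0.28, adjusted p 1.11e-12), yet the PTZ45 mean was 4.38% of that in controls, where Npas4 rose to 3946 and 3293. Arc, which encodes a synaptic protein that controls AMPA receptor trafficking, had 569, 712 and 780.4 in Sal and 843, 929 and 1289 in PTZ45. Its log2FC of 0.57 (SE 0.15, adjusted p 0.0445) was at the edge of the threshold. The call of Arc held without PTZ45 replicate 1 only among the fits that left out 1 library (adjusted p 0.0371), the others giving 0.105 to 0.874. Without PTZ45 replicate 3 the log2FC of Arc was 0.37. Ptgs2, the inducible cyclooxygenase of excitatory neurons, had 295, 276 and 291 in Sal and 429, 422 and 454 in PTZ45. Its groups were tight and separate (log2FC 0.59, SE 0.13, adjusted p 0.00239), but the PTZ0 libraries, at 329, 349 and 334, lay between them, and against PTZ0 the log2FC was 0.37 with an adjusted p of 0.646. Without PTZ45 replicate 1 or 3 or Sal replicate 2 the adjusted p of Ptgs2 against Sal was 0.108, 0.0826 and 0.112. After a correction for GC content it was 0.0777, and without the choroid plexus-rich libraries 0.212. By edgeR with its own expression filter it was 0.101, so the call was lost in 6 of 14 alternatives.

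Among the 76 genes called at least 2-fold higher in controls, the vascular genes Apold1 and Ccn1 had the highest ratios of CBP-ifKO to control log2FC. Apold1, an early response gene of endothelial cells, had 42.9, 35.3 and 44.3 normalized counts in Sal and 77.8, 107 and 169.8 in PTZ45. Its log2FC was 1.50 (SE 0.29, adjusted p 0.000576) against 1.91 (SE 0.24) in controls, a ratio of 0.79. The PTZ45 mean was 60.2% of that in control PTZ45 libraries, which had 217 and 176. Ccn1, a secreted matricellular protein of vessels and fibroblasts, had 12.8, 24.9 and 18.5 in Sal and 29.4, 65.0 and 125 in PTZ45. Its log2FC was 2.03 (SE 0.44, adjusted p 0.00354) against 3.07 (SE 0.26) in controls, a ratio of 0.66. Neither interaction was called, and their 95% intervals ran from -1.16 to 0.33 for Apold1 and from -2.55 to 0.40 for Ccn1. Each interval thus covers both an equal response and a sizeable loss, and that of Ccn1 is the wider. Apold1 was not called without PTZ45 replicate 3 (adjusted p 0.155), and Ccn1 was not called without Sal replicate 1 (0.583) or Sal replicate 3 (0.653) and had no adjusted p without PTZ45 replicate 3. Without that library the log2FC of Ccn1 was 1.398, a ratio of 0.46 that lay below the 0.47 of Dusp1, and without Sal replicate 1 its ratio of 0.58 lay below that of Adamts1 (0.65). Apold1 had the highest ratio of the 76 without any 1 of the 6 libraries, from 0.60 without PTZ45 replicate 3 to 0.91 without PTZ45 replicate 1.

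Markers of vessels did not separate the groups. The sum of 8 endothelial markers was 2304 to 2804 normalized counts in Sal and 2463 to 2712 in PTZ45, and that of 8 markers of pericytes and smooth muscle was 2161 to 2847 and 2282 to 2779. DESeq2 called 0 of these 16 markers in either direction, and 0 had an unadjusted p under 0.05. Within PTZ45 the order of the libraries was the same for both sums as for Apold1 and Ccn1, with replicate 3 highest. Sal replicate 1, with the highest endothelial sum of the 6 libraries, had the lowest Ccn1 count of them and an Apold1 count between those of the other Sal libraries. The part of vessel content in the response of either gene was not tested. When the choroid plexus-rich PTZ45 replicate 2 and Sal replicate 1 were left out, the log2FC values were 1.61 for Apold1 (adjusted p 0.0722) and 1.85 for Ccn1 (adjusted p 1), from 2 libraries a group. The cells in which either gene rose were not measured.

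Of 20 stimulus-response genes known from blood vessels, 17 could be tested in CBP-ifKOs. Apold1 and Ccn1 were called higher and 0 lower, with a median log2FC of 0.15 for the list and 0.00 for all genes tested. In controls the same list had 3 genes called higher, the third being Adamts1, a secreted metalloprotease, and a median of 0.12. In CBP-ifKOs Adamts1 had 294, 164 and 164 normalized counts in Sal and 181, 418 and 233 in PTZ45, so the groups overlapped (log2FC 0.41, SE 0.46, adjusted p 1), and its highest value was in the choroid plexus-rich PTZ45 replicate 2. In the interaction DESeq2 called 0 of 17 genes of this list, with 0 at an unadjusted p under 0.05, and edgeR without a filter called 1.

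The 2 longest lists hold genes induced in neurons. Of 40 immediate early genes induced in neurons and in other cell types, 7 were called higher in CBP-ifKOs and 0 lower, against 22 of 39 higher in controls, and 15 of 40 had a smaller response in the interaction. The list median was 0.11 in CBP-ifKOs and 0.95 in controls. Of 31 activity genes known mainly from neurons, 3 (Arc, Npas4 and Ptgs2) were called in CBP-ifKOs against 17 in controls, and 11 were smaller in the interaction. The medians were 0.15 and 0.56, and 12 of the 31 had all PTZ45 libraries above Sal without overlap. So had 10 of the 40 immediate early genes, 2 of the 17 vascular genes and 6.69% of all genes tested. The difference between the vascular and the neuronal list was not tested.

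Lists of genes known from glia and innate immunity held no called gene in CBP-ifKOs. Of 16 stress and glucocorticoid genes of glia and vessels, 15 were tested and 0 called by DESeq2 or edgeR (2 lower at an unadjusted p under 0.05), with log2FC values from -0.42 to 0.40 and a median of -0.05. Errfi1, a feedback inhibitor of the EGF receptor, was the one member called in controls (log2FC 1.13, SE 0.12), and had 473, 405 and 555 normalized counts in Sal and 486, 517 and 704 in PTZ45 of CBP-ifKOs, with an interaction of -0.90 (SE 0.21, adjusted p 0.00682). That interaction of Errfi1 was not called in 6 of 19 alternatives. Its adjusted p was 0.0658 without CBP-ifKO PTZ45 replicate 1, 0.0591 without PTZ45 replicate 2, 0.0685 without Sal replicate 3, 0.973 without Control PTZ45 replicate 1, 1 without the choroid plexus-rich libraries and 0.153 by edgeR with its own expression filter. Of 13 inducible cytokine and innate immune genes of microglia, only 4 had an adjusted p in CBP-ifKOs, and DESeq2 called 0 in either genotype, and in CBP-ifKOs none of the 4 had an unadjusted p under 0.05.

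**Figure D2:**
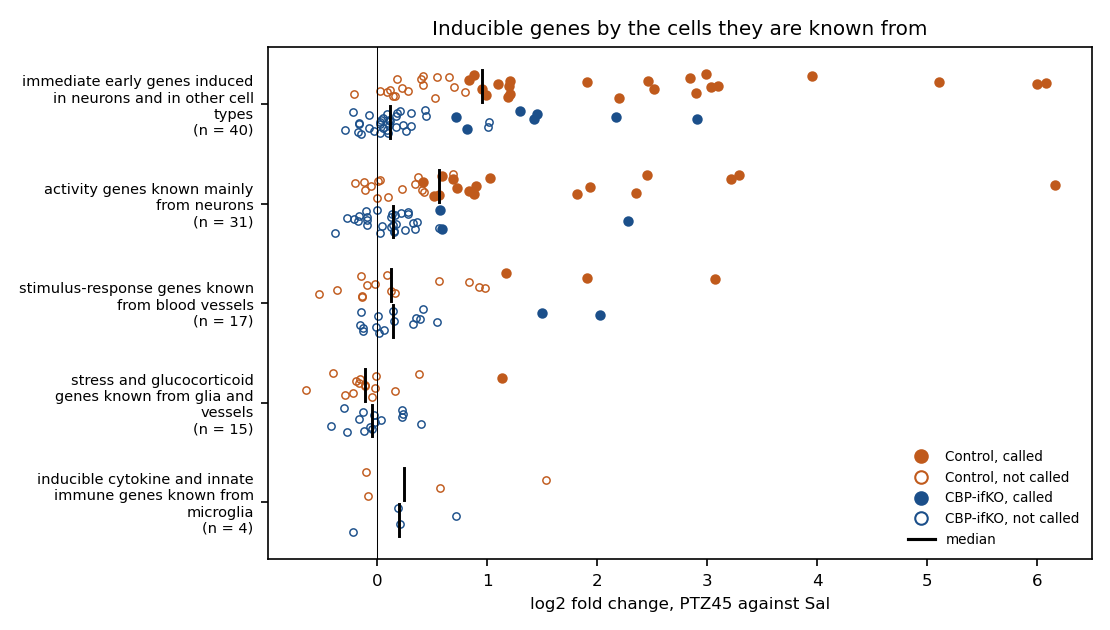
Log2FC of PTZ45 against Sal for each tested member of 5 lists of inducible genes, in controls and in CBP-ifKOs. Filled points were called, open points were not, and bars are medians. The vascular list has 2 called genes in CBP-ifKOs and 3 in controls, while the neuronal list has 3 and 17.

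Across the whole control response, 76 genes were called at least 2-fold higher in controls, and in CBP-ifKOs the log2FC was below the control value for all 76. The control libraries chose these genes, which raises their control values, and played no part in the CBP-ifKO values. Of the 76, 15 were called in CBP-ifKOs, 51 were smaller in the interaction and 23 were in neither set. The median log2FC was 0.30 in CBP-ifKOs against 1.91 in controls, and the median ratio of the former to the latter was 0.17. The 3 CBP-ifKO PTZ45 libraries were alike in this, with medians of 0.30, 0.32 and 0.29 over the Sal mean. Of the 76 genes 30 had all PTZ45 libraries above Sal and 68 had a log2FC above 0, against 6.69% and 50.4% of all genes tested.

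**Figure D3:**
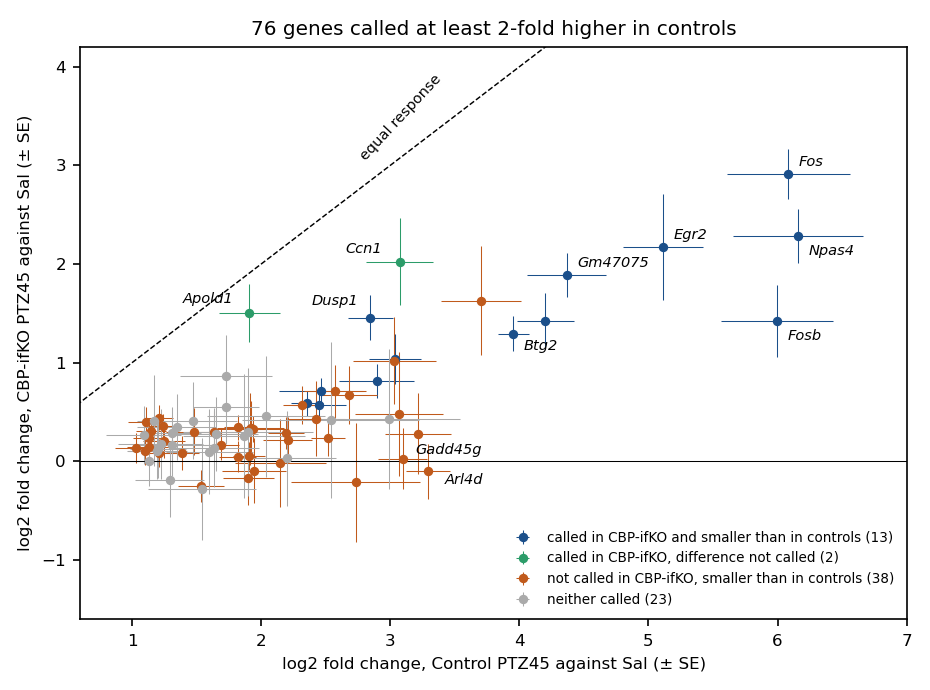
Log2FC of PTZ45 against Sal in CBP-ifKOs and in controls, with SE, for 76 genes called at least 2-fold higher in controls. The dashed line marks an equal response. All points lie below it, Apold1 and Ccn1 nearest to it among the genes called in CBP-ifKOs, and Gadd45g and Arl4d lie near 0, at 0.03 and -0.10 in CBP-ifKOs.

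Among the 76 genes 3 had a ratio over 0.5, namely Apold1, Ccn1 and Dusp1, followed by Fos at 0.48 among genes with a mean of 50 or more. At the other end Gadd45g, a stress sensor gene linked to DNA demethylation, had 50.6, 45.7 and 49.5 normalized counts in Sal and 38.9, 67.0 and 43.6 in PTZ45. Its log2FC was 0.03 (SE 0.31) against 3.10 (SE 0.19) in controls, where it rose from 55.3, 73.9 and 54.2 to 562 and 469. Arl4d, a small GTPase of the ADP-ribosylation factor family, had 48.0, 74.7 and 81.3 in Sal and 65.2, 57.0 and 66.0 in PTZ45. Its log2FC was -0.10 (SE 0.28), where controls rose from 90.4, 80.0 and 76.8 to 912 and 709. Their interactions were -3.07 (SE 0.31, adjusted p 4.41e-19) and -3.38 (SE 0.29, adjusted p 5.16e-28).

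The promoters of Gadd45g (chr13:51846425-51846724 on the plus strand) and Arl4d (chr11:101665291-101665590 on the plus strand) are printed in the same way for comparison with the responders above.
Gadd45g: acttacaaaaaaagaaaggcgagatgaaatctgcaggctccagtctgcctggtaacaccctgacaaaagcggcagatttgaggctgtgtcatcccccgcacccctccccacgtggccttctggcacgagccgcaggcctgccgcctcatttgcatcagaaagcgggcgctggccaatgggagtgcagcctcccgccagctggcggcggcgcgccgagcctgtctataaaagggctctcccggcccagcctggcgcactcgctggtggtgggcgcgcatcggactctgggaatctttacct
Arl4d: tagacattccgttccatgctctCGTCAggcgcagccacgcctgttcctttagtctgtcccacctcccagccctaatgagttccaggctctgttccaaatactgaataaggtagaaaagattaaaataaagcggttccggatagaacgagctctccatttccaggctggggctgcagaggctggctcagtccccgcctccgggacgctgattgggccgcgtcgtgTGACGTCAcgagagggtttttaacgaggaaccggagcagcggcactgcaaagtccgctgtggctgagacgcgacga
Arl4d held the full TGACGTCA, 26 bases before the start, and Gadd45g held no TGACG in this window. Neither gene was called in CBP-ifKOs.

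Other AP-1 genes were not called in CBP-ifKOs. Junb had 122, 149 and 178 normalized counts in Sal and 175, 177 and 178 in PTZ45 (log2FC 0.24, SE 0.19), against 2.52 in controls. Jun had 468, 486 and 426 in Sal and 399.5, 365 and 466 in PTZ45, with a log2FC of -0.16 (SE 0.13) against 0.95 in controls. Fosl2 had 0.10 (SE 0.15) against 1.10. Pcdh8, an activity-regulated protocadherin, had 254, 224 and 217 in Sal and 182, 218 and 186 in PTZ45 where controls reached 859 and 563. Among the genes with the lowest ratios at a mean of 50 normalized counts or more were also Fbl, which encodes the nucleolar methyltransferase fibrillarin, the potassium channel gene Kcnj2 and Rpl10, with log2FC values of -0.10, 0.08 and 0.00 in CBP-ifKOs against 1.94, 1.38 and 1.13 in controls.

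The 4 genes without an established name lie within other genes. Gm47075 and Gm47088 lie in the first intron of Homer1, on its strand, at 93312041 to 93314055 and 93317427 to 93319065 of chromosome 13 (GRCm38), and overlap no exon of its 12 annotated transcripts. Gm47075 had 58.3, 51.9 and 36.9 normalized counts in Sal and 172, 189.9 and 180.4 in PTZ45, with a narrow spread in PTZ45 and a log2FC of 1.89 (SE 0.23, adjusted p 5.53e-13). Gm47088 had 51.2, 45.7 and 26.6 in Sal and 94.6, 109 and 125 in PTZ45 (log2FC 1.42, SE 0.28, adjusted p 0.000578, and 0.0613 without PTZ45 replicate 3). Homer1 itself, a scaffold of the postsynaptic density, had 2797, 2563 and 2753 in Sal and 3117, 2818 and 2971 in PTZ45, a log2FC of 0.13 (SE 0.08, adjusted p 1). Unspliced Homer1 RNA and transcripts of their own cannot be told apart in these counts.

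C630044B11Rik lies in the second intron of Ntrk2, the BDNF receptor gene, and had 61.5, 72.6 and 41.4 normalized counts in Sal and 131, 121 and 96.7 in PTZ45. Its log2FC was 1.03 (SE 0.25, adjusted p 0.0217), but leaving out any 1 of the 6 libraries gave adjusted p-values from 0.0531 to 1. After a correction for GC content the adjusted p was 0.0752, and the call was lost in 10 of 14 alternatives. Gm43864, which lies within a protein-coding gene on the same strand, was the one responder not called in controls. It had 222, 110.0 and 116 in Sal and 261, 279 and 279 in PTZ45, but 0 counts in PTZ0 replicate 2 and 0.904 in Control Sal replicate 3, next to 239.8 and 264 in other libraries of those groups. Libraries of 1 group thus ranged from none or 1 count to over 200 normalized counts. The log2FC was 0.84 (SE 0.22, adjusted p 0.0425), and 8 of 14 alternatives lost the call, among them the fits without any 1 of the PTZ45 libraries (0.326 to 0.53), without Sal replicate 2 (1) and without Sal replicate 3 (0.405). Without Sal replicate 1 the log2FC of Gm43864 was 1.26.

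H3f3b, a gene for the replacement histone H3.3 that enters transcribed chromatin, is expressed in all cells. It had 714, 693 and 667 normalized counts in Sal and 883, 877 and 986 in PTZ45, and 916 and 1088 in control PTZ45 libraries. With a log2FC of 0.40 (SE 0.10, adjusted p 0.0293) against 0.59 (SE 0.12) in controls, a ratio of 0.68, its interaction of -0.19 had a 95% interval from -0.48 to 0.11 and was not called. The call of H3f3b held without Sal replicate 1 (adjusted p 0.048) and was lost without any other library (0.132 to 0.513) and after the correction for GC content (0.223). The log2FC was 0.37 after that correction and 0.35 to 0.43 without 1 library.

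**Figure D4:**
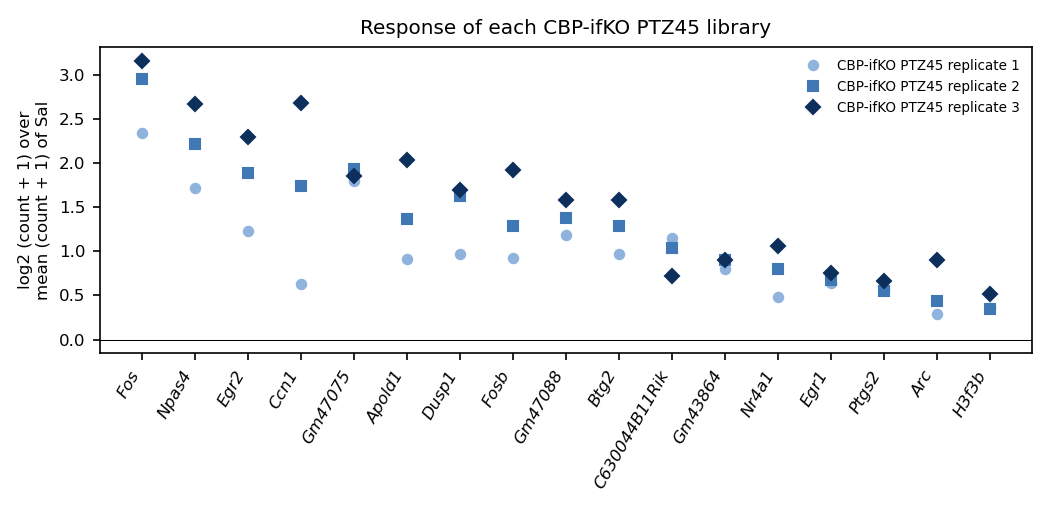
Log2 ratio of each CBP-ifKO PTZ45 library to the mean of the CBP-ifKO Sal libraries, with 1 added to each normalized count, for the 17 genes called higher. Replicate 3 is highest for 15 genes and replicate 1 lowest for 14, and Gm47075, Egr1 and Ptgs2 differ little between libraries.

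Among the 17 genes, which were chosen on these same libraries, the size of the response differed between the 3 PTZ45 mice. Replicate 3 was the highest PTZ45 library for 15 of the 17 genes and replicate 1 the lowest for 14, with both holding for 13. For Ccn1 the log2 ratios to the Sal mean were 0.63, 1.74 and 2.67 in replicates 1, 2 and 3, and for Apold1 0.91, 1.37 and 2.03. Fos had 2.34, 2.95 and 3.16. No such order was seen over the 76 genes chosen in controls, where the library medians were 0.30, 0.32 and 0.29.

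Kindled mice given saline shared the lane with PTZ45 and served as a second reference. In PTZ45 against PTZ0, DESeq2 called 16 of 26374 genes higher (0.0607%), among them 12 of the 17. These comparisons share the PTZ45 libraries and are not independent. For each of the 17 genes the lowest PTZ45 library was also above the highest PTZ0 library, as for 4.67% of all genes tested, but the 17 were chosen on the same PTZ45 libraries. Fos rose by 4.03 (SE 0.30), Npas4 by 2.51 (SE 0.55), Apold1 by 1.45 (SE 0.29) and Ccn1 by 1.76 (SE 0.42) on the log2 scale, with adjusted p-values of 1.03e-36, 0.0105, 0.00105 and 0.0358. Fosb, Arc, Ptgs2, H3f3b and Gm43864 were not called there and had adjusted p-values of 0.0947, 0.671, 0.646, 0.23 and 1. Dusp6, a phosphatase of ERK, and Nr4a2, a relative of Nr4a1, were called against PTZ0 with 0.52 (SE 0.11, adjusted p 0.00216) and 0.51 (SE 0.12, adjusted p 0.0208), while against Sal they had 0.44 and 0.33 with adjusted p-values of 0.119 and 0.717. The other 2 of the 16, mt-Rnr1 (log2FC 0.28) and Mir6236 (log2FC 0.55), were named after their values were seen. The higher count was 10 without PTZ0 replicate 3 and 9 without PTZ45 replicate 2.

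A set of 41 genes was called lower in PTZ45 than in Sal (0.208% of genes tested), with a median log2FC of -0.50 and only 2 genes lowered at least 2-fold. C1qtnf4, which encodes a secreted C1q and TNF related protein, had 96.7, 199 and 165 normalized counts in Sal and 75.7, 34.0 and 59.0 in PTZ45 (log2FC -1.43, SE 0.29, adjusted p 0.00112). Pcsk1n, an inhibitor of a prohormone convertase, had 196, 319.6 and 289 in Sal and 118, 98.0 and 141 in PTZ45 (-1.16, SE 0.20, adjusted p 3.23e-05). Rprml followed at -0.97, Gm26397 at -0.74, Tnrc18 at -0.73, Irf2bpl at -0.69 and Irf2bp1 at -0.68. The ribosomal protein gene Rplp1 fell by 0.66 on the log2 scale, as did Ahdc1 and the postsynaptic scaffold gene Dlgap3. In controls 40 of the 41 genes had a log2FC below 0, as did 48.7% of all genes tested there, and 10 were called lower (0.236% of all genes). Of the 41, 0 had a called interaction in DESeq2, with 5 at an unadjusted p under 0.05 and 2 called by edgeR without a filter. Against PTZ0 5 of the 41 were called lower, in a comparison that reuses the PTZ45 libraries on which the 41 were chosen and that called 0.0265% of all genes lower.

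These lower genes were rich in G and C. Their transcripts had a median GC content of 60.5%, compared with 49.0% over the 13042 genes at a mean of 50 normalized counts or more and 52.7% for the 17 higher genes. Over those 13042 genes, which are not independent, the log2FC fell with GC content (Spearman correlation -0.55). After a correction of each library for its GC trend, Pcsk1n, Rplp1 and Gm25776 were still called lower, and 13 of the 17 higher genes still called higher, including both vascular genes. The count of lower genes was 11, 19 and 22 without PTZ45 replicate 1, 2 or 3, and 76 and 5 without Sal replicate 1 or 2.

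**Figure D5:**
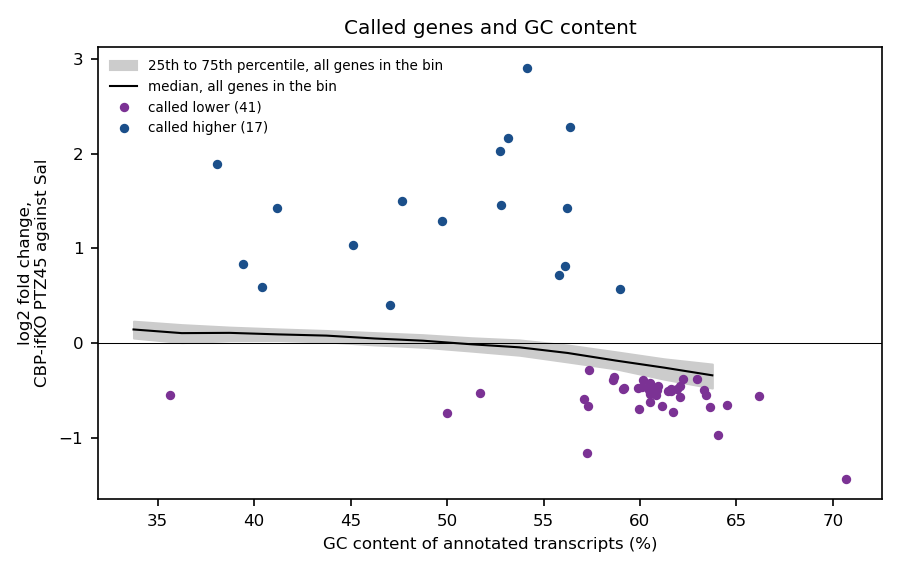
Log2FC of PTZ45 against Sal in CBP-ifKOs over the GC content of annotated transcripts. The line and band are the median and quartiles of all genes at a mean of 50 normalized counts or more in bins of GC content, and points are the called genes. Of the 41 lower genes 40 lie at a GC content of 50% or more, where the line runs below 0, with Gm25776 at 35.7%, and the 17 higher genes are spread along the axis.

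In 13 lists of cell type markers DESeq2 called 1 gene, Nrgn, a calmodulin-binding protein of excitatory neurons, which fell by 0.48 on the log2 scale (SE 0.11, adjusted p 0.00506). After the correction for GC content Nrgn had a log2FC of -0.29 and was not called (adjusted p 1). Of 8 excitatory neuron markers, 4 were lower and 1 higher at an unadjusted p under 0.05. Only 2 of the 8 choroid plexus markers had an adjusted p in DESeq2, and edgeR without a filter called 3 of the 8 lower, with 1 CA1 marker and 1 excitatory neuron marker also lower. The summed markers of each list overlapped between Sal and PTZ45 in 12 of the 13. The sum of 12 interneuron markers did not overlap, at 10939 to 11545 in Sal and 11609 to 11807 in PTZ45, a difference of 0.05 on the log2 scale of the mean sums. The part of this in the responses above was not tested.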

How the data were processed

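The authors deposited a table of gene counts, in whole numbers and without normalization. Per the study's methods, single-end reads of 50 bases were aligned to GRCm38, reads with a mapping quality over 10 were kept, and exons of Ensembl genes were counted with Rsubread. The submitters' processing notes name FastQC 0.11.8, Trim Galore 0.6.4, STAR 2.6.1 and DESeq2 1.30.1. Use of the strand was not given in the sources used here, so overlapping genes on opposite strands, and near-identical copies, are uncertain. 1 column of counts matched no sample and was not used. Its name resembles those of the 2 Control PTZ45 libraries. Replicate numbers, also those of the block, follow the labels, by which the column numbered 3 in that group is replicate 2.

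Groups came from the labels, and each library from 1 mouse. The comparison, the gene lists and the markers were chosen with earlier results of these data known. The main test was the two-sided Wald test of DESeq2 1.42.0 in R 4.3.3, on genes with a count, for each pair of groups and for the genotype by PTZ45 interaction. A gene was called at a Benjamini-Hochberg adjusted p under 0.05 after independent filtering. Normalized counts are counts divided by size factors of 1 scaling over 17 libraries. GC content and positions came from GENCODE M21, in which 99.6% of gene IDs were found.

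The genes named were taken from every gene called higher, the 10 called lower with the largest log2FC (mean of at least 50 normalized counts, no overlap), members of 5 inducible lists called in any of the comparisons, and the genes with the 10 highest and 10 lowest ratios of CBP-ifKO to control log2FC. The latter were taken among genes called at least 2-fold higher in controls, again at 50 or more normalized counts on average. Nrgn and Gm25776 were named after their values were seen.

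The alternatives were edgeR 4.0.16 (quasi-likelihood, without a filter), TMM scaling, at least 10 counts in at least 2 libraries, 1 fit of all libraries, the replicate number as a block, a GC correction (loess, span 0.5, genes with a mean of at least 20) and leaving out each library. Chosen after seeing the data were edgeR with its own expression filter and leaving out together the libraries with high choroid plexus marker sums (Sal replicate 1, PTZ45 replicate 2 and PTZ0 replicate 3 of CBP-ifKOs, Control Sal replicate 2). The tests were checked on simulated counts.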

Additional observations from a re-analysis of the deposited data

Results flagged for a closer look

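The genotype by PTZ45 interaction, which tests whether a response differed between CBP-ifKOs and controls, was called for 69 genes in DESeq2, each with the smaller response in CBP-ifKOs. Of the named genes, 36 were among them, and their interaction terms follow on the log2 scale. Among genes called higher in CBP-ifKOs, the terms were -4.57 for Fosb, -3.88 for Npas4, -3.18 for Fos, -2.92 for Egr2, -2.78 for Gm47088, -2.66 for Btg2 and -2.48 for Gm47075. They were -2.09 for Nr4a1, -1.99 for C630044B11Rik, -1.88 for Arc, -1.77 for Ptgs2, -1.77 for Egr1 and -1.4 for Dusp1.

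Among genes not called higher in CBP-ifKOs, the transcription factor genes had -2.91 (Egr4), -2.28 (Junb), -2.04 (Ier2), -1.85 (Egr3), -1.6 (Nr4a2), -1.12 (Jun), -1.12 (Per1) and -1 (Fosl2). Signalling and synaptic genes had -3.38 (Arl4d), -3.07 (Gadd45g), -1.78 (Pcdh8), -1.48 (Rgs2), -1.3 (Kcnj2), -0.896 (Errfi1), -0.764 (Dusp6), -0.714 (Plk2) and -0.624 (Rgs4). The remaining genes had -2.07 (Gm13889), -2.04 (Fbl), -1.77 (Gm45902), -0.892 (Coq10b), -0.712 (Gm33366) and -0.531 (Fbxo33). Of these 36 interaction calls, 24 held in each of 19 alternatives, among them those of Fos, Npas4, Fosb and Btg2. The calls of Fbxo33, Gm33366, Rgs4 and Ier2 were lost in 14, 13, 9 and 8 of the 19, those of Egr2 and Coq10b in 7, Errfi1 in 6, Dusp6 in 4, Fosl2 in 3, Dusp1 in 2, and Egr1 and Per1 in 1. Without Control PTZ45 replicate 1, which leaves 1 library in that group, assumed to vary like the other groups, the calls of Dusp1, Per1, Fosl2, Dusp6, Coq10b, Rgs4, Errfi1, Ier2, Fbxo33 and Gm33366 were lost, with adjusted p-values of 0.111, 0.0635, 0.294, 0.382, 0.402, 0.676, 0.973, 0.991, 1 and 0.287. The call of Egr1 was lost without the choroid plexus-rich libraries (adjusted p 0.134). That of Egr2 was lost without CBP-ifKO PTZ45 replicate 2 (0.21), CBP-ifKO Sal replicate 1 (0.291), Control Sal replicate 2 (0.195) or Control Sal replicate 3 (0.0608). No group compared here had more than 3 libraries, so no library was tested for lying apart from its group.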

How the results depend on the processing

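The count of genes higher in CBP-ifKO PTZ45 than in Sal (17) was 29 with edgeR without a filter, 4 with its expression filter and 9 without the choroid plexus-rich libraries. It ranged from 6 to 16 when 1 library was left out. TMM (16), the filter on low counts (17), the fit of all libraries (24), the GC correction (13) and the replicate block (20) stayed within 1.5 times. The lower count (41) was 189 and 0 with edgeR (890 at an unadjusted p under 0.05 for the latter), 67 in the fit of all libraries, 64 with the replicate block and 3 with the GC correction, and 5 to 76 without 1 library.

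Against PTZ0 the higher count (16) was 35 and 8 with edgeR, 7 with the block and 7 without the choroid plexus-rich libraries, and 9 to 17 without 1 library. The lower count (7) was 66 and 1 with edgeR, 12 with TMM, 4 in the fit of all libraries, 1 with the block, 4 with the GC correction and 1 without the choroid plexus-rich libraries, and 3 to 12 without 1 library. In controls the higher count (163) was 297 with edgeR without a filter and 69 with the block, and 105 to 137 without 1 library. The lower count (41) was 310, 4 with the block and 6 with the GC correction, and 2 to 32 without 1 library. Smaller responses in the interaction (69) numbered 104 and 43 with edgeR, 36 without the choroid plexus-rich libraries and 37 to 65 without 1 library, and larger ones (0, with 116 at an unadjusted p under 0.05) numbered 17 with edgeR, 3 with the block and 0 to 2 without 1 library. The cause of these shifts was not tested.

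Each library came from its own mouse, and the sources used here do not say whether a replicate number marks anything shared. Deviations of same-numbered Sal and PTZ45 libraries correlated at -0.29, -0.34 and 0.50, and not every library correlated best with its own number. Of 1028 values of 69 named genes under alternatives, 892 kept the call or its absence (45 of these changed sign, uncalled in both fits), 130 lost the call, 6 gained it and 0 reversed a called direction. With 3 libraries a group and totals from 5831992 counts, genes with few counts, such as Egr2 and the cytokines, were measured least precisely.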
